A study of Rhodotorula toruloides with 36 samples.

Results

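Strain BIS18 was compared with its parent, WT, after 48 h of growth, when the cultures were in stationary phase. Both are Rhodotorula toruloides IFO0880, an oleaginous red yeast, and the genotype label of BIS18 adds P_GAPDH-BIS. BIS18 holds a single copy of this cassette, in which the promoter of the native glyceraldehyde 3-phosphate dehydrogenase gene drives the α-bisabolene synthase BIS of the conifer Abies grandis. BIS18 is 1 transformed strain, so effects of the cassette, of its place in the genome and of any other change in that strain cannot be told apart. The members are 8 libraries of 36 in the series, 3 of BIS18 (replicates 1 to 3) and 5 of WT (replicates 1 and 3 to 6), chosen by strain and time from the sample labels. WT replicate 2 at 48 h was left out as a low-depth outlier. The other libraries are those of BIS18 and WT at 18 h, in exponential phase, and those of BIS14, BIS3 and GB2, strains that also carry BIS. All were grown in synthetic defined medium. The labels give 2% glucose for it and the written methods a lower amount. The labels do not say that replicates came from separate cultures, so the p-values measure the spread between these samples, which may be technical.

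Bisabolene is a sesquiterpene made in a single step from farnesyl diphosphate. Farnesyl diphosphate comes from the mevalonate pathway, which joins acetyl-CoA units to mevalonate and turns mevalonate into the isoprene units isopentenyl and dimethylallyl diphosphate. The same precursor feeds squalene and the sterols, and the same acetyl-CoA feeds fatty acids, of which this yeast stores large amounts as lipid once growth slows. A terpene synthase put into such a cell therefore draws on a pool that native enzymes also use. The comparison asks which transcripts differ when the yeast carries a single copy of that synthase.

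Total counts per library were 2050451 to 3007981 in BIS18 and 1420665 to 3102440 in WT. WT replicate 2 held 657951 counts, and its mean correlation with the 5 other WT libraries was 0.728, where those libraries had 0.976 to 0.982 among themselves (Pearson's r of log2(CPM + 1) across 7913 transcripts, which are not independent replicates). Between pairs of WT libraries the variance was 2.98 to 7.66 times that of counting alone, and between pairs of BIS18 libraries 1.37 to 1.89 times. These are values of chi-square per degree of freedom, which also depend on depth. The make-up of the libraries also differed between the strains. The 100 most abundant transcripts of each library took 16.01 to 16.2% of its counts in BIS18 and 13.5 to 14.1% in WT, and the mean length of a counted transcript was 2381 to 2407 bases in BIS18 and 2418 to 2519.6 bases in WT, in both cases without overlap. TMM, which sets libraries to one scale on the assumption that most transcripts do not differ, gave factors of 0.986 to 0.989 in BIS18 and 1.08 to 1.09 in WT.

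BIS, the synthase itself, was read in every BIS18 library. Its level at 48 h was 336, 329 and 329 FPKM (counts scaled to listed length and to the library's total) in BIS18 replicates 1 to 3, against 1.29, 2.01, 1.99, 2.17 and 1.84 FPKM in WT replicates 1, 3, 4, 5 and 6. Nat, the nourseothricin resistance marker, had 1994, 2041 and 2196 FPKM in the BIS18 libraries, against 3.67, 9.78, 3.08, 5.95 and 2.24 FPKM in the WT libraries. The groups lay far apart for both, and the WT level, from 6 to 14 counts of BIS and 4 to 9 counts of Nat per library, came to 0.562% and 0.238% of the BIS18 mean. By edgeR's quasi-likelihood test the log2 difference was 7.58 (standard error 0.16, adjusted p = 1.57e-19) for BIS and 8.95 (standard error 0.22, adjusted p = 1.56e-18) for Nat. Hyg, a hygromycin B marker, had 0 counts in each BIS18 library, which allows up to 1.46, 1.46 and 0.997 CPM (counts scaled to the library's total), and 1 count in a single WT library. BIS was thus far above the WT level in each library labelled BIS18.

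Within BIS18 the cassette entries were steady between replicates. BIS averaged 331 ± 4.04 FPKM and Nat 2077 ± 106 FPKM at 48 h (SD, n = 3), so Nat stood 6.27 ± 0.374 times as high per length as BIS. At 18 h BIS averaged 399 ± 30.97 FPKM and Nat 1097 ± 81.4 FPKM (SD, n = 3), a ratio of 2.77 ± 0.380. The 48 h and 18 h libraries of BIS18 did not overlap for either entry.

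**Figure D1:**
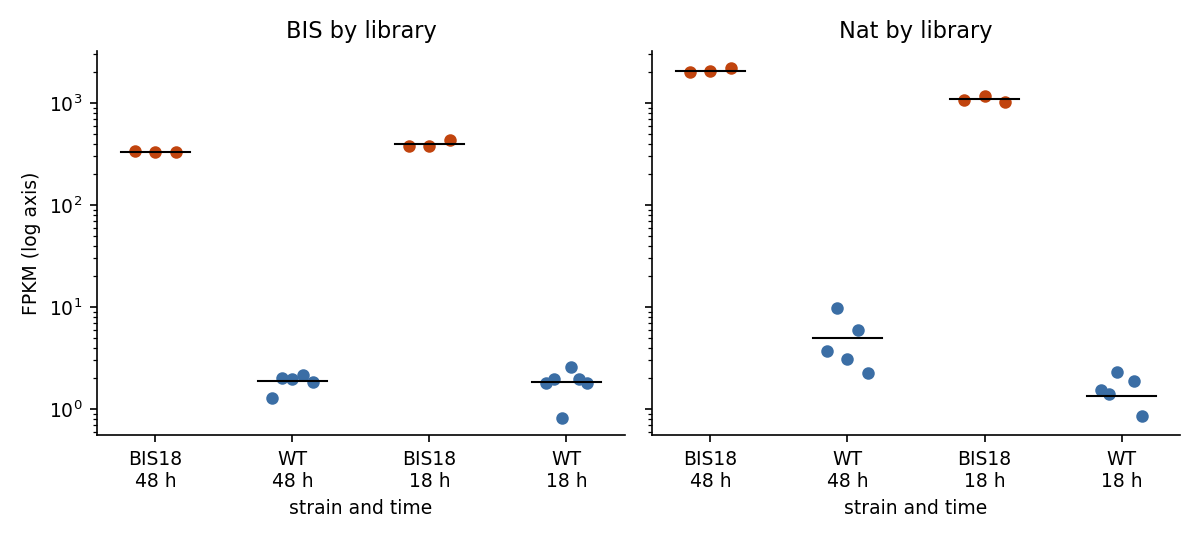
FPKM (log axis) of BIS (left) and Nat (right) in each library of BIS18 and WT at 48 h and 18 h, with a bar at the group mean; the WT library with 0 counts of Nat at 18 h cannot be drawn on a log axis. BIS18 stood at 329 to 336 FPKM for BIS at 48 h, against 1.29 to 2.17 FPKM in WT.

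Beyond the cassette, many transcripts differed by a small amount. Of 7913 transcripts tested, 1497 (18.9%) passed an adjusted p of 0.05, of which 878 were higher in BIS18 (11.1%) and 619 were lower (7.82%). The median change was 1.39-fold among the higher ones and 0.722-fold among the lower ones. A change of at least 1.5-fold was reached by 281 higher and 188 lower transcripts, one of at least 2-fold by 74 and 42, and one of at least 4-fold by 7 and 1. The 3 BIS18 and 5 WT libraries did not overlap for 817 of the higher and 531 of the lower transcripts, where 14.7% and 12.0% of all transcripts tested had no overlap in those directions, 26.8% together.

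These counts depended on single libraries and on the scale. With WT replicate 2 kept, 172 of 7917 transcripts were higher (2.17%) and 65 lower (0.821%), 2.99% in all. Leaving out BIS18 replicate 1 gave 831 calls, replicate 2 gave 827 and replicate 3 gave 965. With library totals in place of TMM, an alternative added after the factors were seen, 488 were higher and 1623 lower, and the median of all transcripts lay at -0.16 on the log2 scale, where with TMM it lay at -0.03.

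The share of higher transcripts differed with abundance. When the transcripts tested were put into 4 equal classes by mean CPM, 26.5% of the most abundant class (at least 130.7 CPM) were higher in BIS18 and 5.31% lower. In the least abundant class 3.54% were higher and 5.76% lower. Of the 100 transcripts with the highest mean, 50 were higher and 5 lower, with a median log2 difference of 0.32. The median listed length was 1614 bases for the higher, 2144 bases for the lower and 1850.0 bases for all transcripts tested. Small changes are easier to call at higher counts, so the classes did not have equal power. The part of this and of the different library make-up in these counts was not tested.

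**Figure D2:**
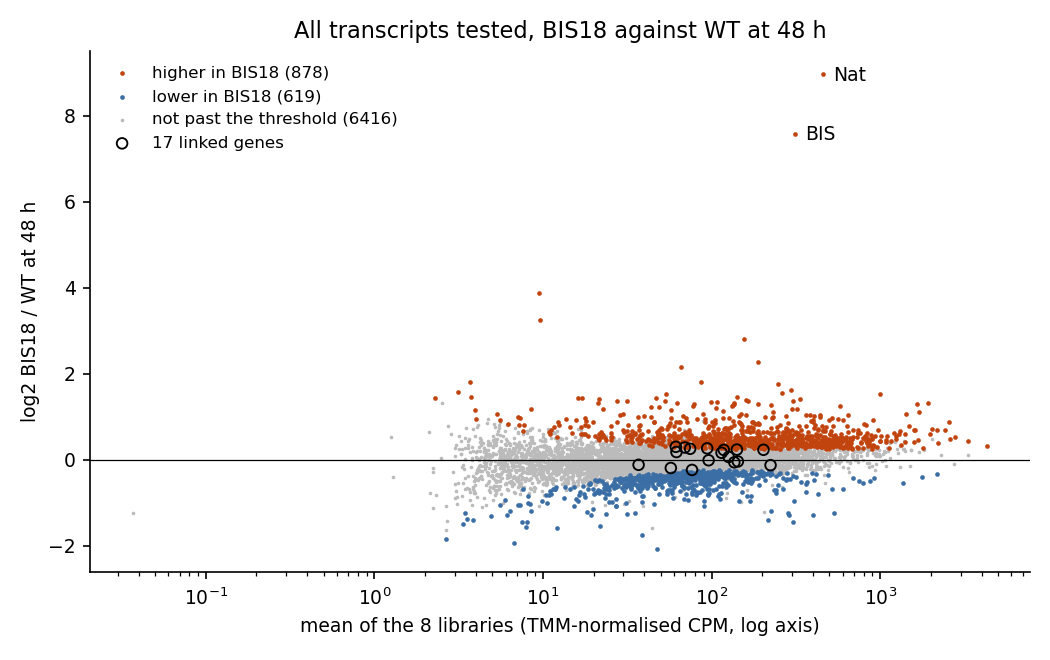
Log2 difference of BIS18 from WT at 48 h against mean CPM over the 8 libraries (log axis) for 7913 transcripts tested, with those past the threshold in colour and the 17 linked genes of terpene, sterol and fatty acid synthesis ringed. BIS and Nat stand at 7.58 and 8.95, and the 17 genes lie between -0.24 and 0.30.

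None of the 17 linked genes of the mevalonate pathway and its branches passed the threshold at 48 h (0 higher, 0 lower, where 11.1% and 7.82% of all transcripts did). At an unadjusted p under 0.05 there were 5 of 17, where 32.8% of all transcripts were, and DESeq2 called 0. The libraries of BIS18 and WT did not overlap for 5 of the 17 genes, and for 26.8% of all transcripts tested, a similar share. The genes are those of a supplementary list on the 18 h samples of the same strains, and how they were selected is not given in the sources used here, so the list is not treated as independent of the data. Their median log2 difference was 0.16, beside -0.03 for all transcripts, 10 of 17 were positive, and the 95% intervals of all 17 lay within -0.47 and 0.58. With WT replicates 4 to 6 only, 4 genes passed (ACC1, FAS1, FAS2 and IDI, all higher), where 16.4% of all transcripts did. Without WT replicate 1 there were 3, where 18.3% of all transcripts passed, and without WT replicate 4 there was 1, where 19.2% did. The median was -0.02 with WT replicates 1 and 3 only and 0.02 with library totals.

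In the upper part of the pathway, ERG10 (acetyl-CoA acetyltransferase, transcript 8806) makes acetoacetyl-CoA. It had 112, 129 and 128 CPM in BIS18, against 85.0, 112, 97.2, 126 and 128 CPM in WT, and the groups overlapped (log2 difference 0.16, 95% interval -0.15 to 0.47, adjusted p = 0.491). ERG13 (3-hydroxy-3-methylglutaryl-CoA synthase) averaged 132 ± 5.72 CPM in BIS18 and 139 ± 16.6 CPM in WT. HMGR, the reductase that makes mevalonate, averaged 52.1 ± 6.67 CPM in BIS18 and 60.5 ± 8.86 CPM in WT (SD, n = 3 and 5). Neither differed past the threshold (adjusted p = 0.68 and 0.314).

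The lower part turns mevalonate into isopentenyl diphosphate. MK (mevalonate kinase), PMK (phosphomevalonate kinase) and MVD (mevalonate diphosphate decarboxylase) had log2 differences of -0.02, 0.06 and -0.12, each with a standard error of 0.09 to 0.13 and libraries that overlapped. With library totals PMK stood at -0.08.

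The prenyl diphosphate enzymes stood a little above WT in 2 of 3 cases. ERG20, the farnesyl diphosphate synthase that makes the substrate of BIS, had 75.8, 69.0 and 64.4 CPM in BIS18, against 62.4, 51.5, 50.6, 59.9 and 57.3 CPM in WT. The libraries did not overlap, yet the log2 difference of 0.30 (standard error 0.12) had an adjusted p of 0.097. IDI (isopentenyl diphosphate isomerase) had 0.25 (standard error 0.10, adjusted p = 0.0858), and GGPPS (geranylgeranyl diphosphate synthase), whose entry overlaps 2 others so that reads may be shared, had -0.04.

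The sterol branch had values of both signs. ERG9, the squalene synthase that competes with BIS for farnesyl diphosphate, had 72.3, 67.1 and 67.4 CPM in BIS18, against 76.1, 79.5, 80.4, 90.2 and 79.6 CPM in WT. Every BIS18 library lay below every WT library, with a log2 difference of -0.24 (standard error 0.10, adjusted p = 0.0989). With library totals its value was -0.38 and passed (adjusted p = 0.0195). ERG1 (squalene monooxygenase) and ERG7 (lanosterol synthase) were also without overlap but above WT, at 0.23 and 0.18 (adjusted p = 0.154 and 0.273), and ERG11 (lanosterol demethylase) stood at -0.13.

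The 4 genes of acetyl-CoA and fatty acid supply all had positive values. ACLY (ATP citrate lyase, the source of cytosolic acetyl-CoA) had 223, 230.3 and 217 CPM in BIS18, against 211, 184, 193, 167 and 199 CPM in WT, without overlap. Its log2 difference was 0.23 (standard error 0.09, adjusted p = 0.0878). ACC1 (acetyl-CoA carboxylase), FAS1 and FAS2 (the fatty acid synthase subunits) had 0.22, 0.26 and 0.28 (adjusted p = 0.235, 0.0608 and 0.183). ACC1 and FAS2 turned to -0.03 and -0.05 with WT replicates 1 and 3 only.

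The same genes can be set beside their change with time in the strains not compared here. In the mean of BIS14, BIS3 and GB2, 16 of 17 were lower at 48 h than at 18 h, with a median log2 change of -1.41. The change of GGPPS, -0.15, did not pass the threshold, and that of IDI was -0.20. Over all transcripts 36.4% were lower. Against the same WT libraries at 48 h, higher calls numbered 9 of the 17 genes for BIS14 (19.5% of all transcripts), 10 for BIS3 (13.5%) and 11 for GB2 (22.2%). Lower calls came to 3, 0 and 0, where 16.3%, 11.5% and 20.5% of all transcripts were lower. These comparisons share the WT libraries, and whether their values differ from those of BIS18 was not tested.

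**Figure D3:**
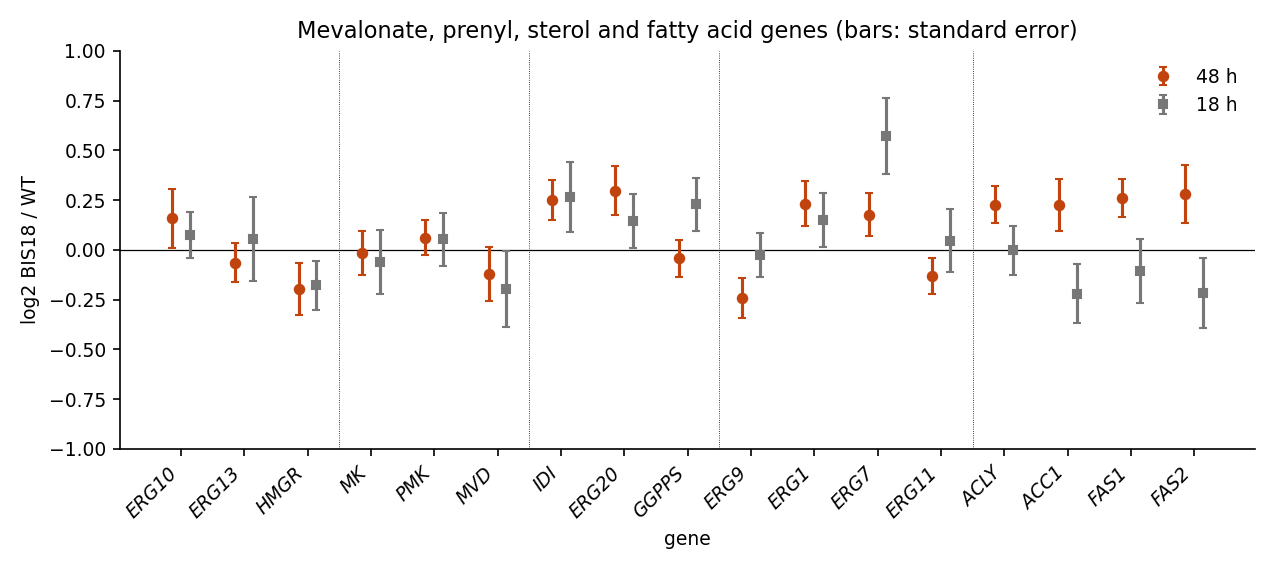
Log2 difference of BIS18 from WT (bars: standard error) for the 17 linked genes at 48 h (circles) and 18 h (squares), with dotted lines between upper and lower mevalonate pathway, prenyl diphosphate enzymes, sterol branch and fatty acid supply. The 48 h values lie between -0.24 and 0.30, and none passed the threshold.

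The largest rises besides the cassette were in transcripts that the files give by number only. Transcript 16345 (scaffold 8, 1213713 to 1217281) had 20.7, 24.7 and 22.2 CPM in BIS18, against 1.47, 2.61, 2.04, 0.348 and 1.48 CPM in WT. Its log2 difference was 3.88 (standard error 0.28, adjusted p = 2.17e-09) at 48 h and 3.76 (adjusted p = 3.29e-08) at 18 h. Beside the same WT libraries at 48 h it stood at 4.48 in BIS14, 4.30 in BIS3 and 5.25 in GB2.

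A second transcript on the same part of scaffold 8 was the largest fall. Transcript 16347 (1222878 to 1223691) had 22.1, 14.3 and 12.1 CPM in BIS18, against 63.3, 54.1, 66.1, 65.9 and 80.8 CPM in WT. All BIS18 libraries lay below all WT libraries, with a log2 difference of -2.07 (standard error 0.18, adjusted p = 6.82e-08). At 18 h it was -1.77 (adjusted p = 3.93e-06). The single entry between 16345 and 16347, transcript 16346, had too few counts to be tested.

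Transcripts 10740 and 10052 were raised at both times. Transcript 10740 (scaffold 13, 452902 to 454246) had 139, 126 and 120.0 CPM in BIS18, against 21.6, 26.7, 28.2, 27.2 and 37.7 CPM in WT, a log2 difference of 2.15 (standard error 0.13, adjusted p = 9.56e-11). Against the same WT libraries it was 4.07 in BIS14, 4.91 in BIS3 and 5.72 in GB2. Transcript 10052 (scaffold 11, 587080 to 588305) had 369.9, 386 and 359 CPM in BIS18, against 71.7, 59.3, 78.0, 91.3 and 83.1 CPM in WT, a log2 difference of 2.26 (standard error 0.12, adjusted p = 1.37e-11). It stood at 1.80 in BIS14, -0.47 in BIS3 and -0.10 in GB2. Whether these strains differ from BIS18 was not tested.

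Several of the named transcripts were neighbours. Transcript 10053, which starts 172 bases after 10052 and on the other strand, was lower, with 3.44, 2.96 and 4.04 CPM in BIS18, against 9.82, 9.12, 15.5, 8.71 and 9.80 CPM in WT (log2 difference -1.57, standard error 0.34, adjusted p = 0.00312). Transcript 10052 also overlaps the entry before it by 74 bases on the other strand and 10053 the entry after it by 313 bases. The library kit does not mark strand, so reads in such overlaps cannot be assigned to 1 gene.

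On scaffold 17, transcripts 11776 (281676 to 282419) and 11777 (282491 to 284863) lie 71 bases apart on the same strand and both rose. Transcript 11776 had 16.2, 27.6 and 20.9 CPM in BIS18, against 2.46, 3.91, 2.86, 1.39 and 1.48 CPM in WT (log2 difference 3.24, standard error 0.36, adjusted p = 2.55e-06). Transcript 11777 had 503, 494 and 539 CPM in BIS18, against 148, 188, 156, 155 and 189.7 CPM in WT (log2 difference 1.61, standard error 0.20, adjusted p = 9.76e-06). At 18 h neither passed the threshold, with values of 0.80 and 0.61, and the change between the times did not pass either (adjusted p = 0.065 and 0.064).

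The longest run of neighbouring transcripts that were all lower held 4, numbers 9973 to 9976 on scaffold 11 (397573 to 404169). Transcript 9975 had 111, 102 and 104 CPM in BIS18, against 209.7, 325, 245, 292 and 329.9 CPM in WT (log2 difference -1.41, standard error 0.18, adjusted p = 1.3e-05). Transcript 9973 had 276, 300.3 and 285 CPM in BIS18, against 488, 564, 709.5, 761 and 876 CPM in WT (log2 difference -1.24, standard error 0.14). In both, the BIS18 libraries lay close together and the WT libraries spread widely above them. For 9973 WT replicates 1 and 3 lay below WT replicates 4 to 6, and 9975 did not split in this way. At 18 h 9973 had 102 to 117 CPM in WT replicates 1 to 3 and 164 to 179.8 CPM in WT replicates 4 to 6. BIS18 has replicates 1 to 3 only, so the size of this fall depends on the WT libraries used. Transcripts 9974 and 9976 had -1.76 and -1.30. Against the same WT libraries at 48 h, 9973 stood at -2.49 in BIS14, -1.90 in BIS3 and -0.99 in GB2, and 9975 at -1.69, -1.07 and 0.003. Transcript 9973 overlaps the entry before it, so reads there may belong to either. At 18 h, 3 of these transcripts could be tested, and all 3 were lower in BIS18. With WT replicate 2 kept, 9973 and 9976 lost the call (adjusted p = 0.268 and 0.133). Transcript 9976 also lost it when BIS18 replicate 1 (adjusted p = 0.0632) or 2 (adjusted p = 0.077) was left out.

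Of the other large changes, transcript 13164 (scaffold 3, 736193 to 738048) averaged 157 ± 20.3 CPM in BIS18 and 44.8 ± 3.16 CPM in WT, with a log2 difference of 1.81 (standard error 0.23). It lost the call with WT replicate 2 kept (adjusted p = 0.0612). Transcripts 11537, 9947 and 15958 fell by 1.30, 1.24 and 1.23 on the log2 scale, with no overlap of libraries. Transcript 16113 and transcript 8873 fell by 1.54 and 1.20, and their WT libraries were uneven, at 13.5 to 50.5 CPM and 5.71 to 18.8 CPM, above 9.84 to 10.1 CPM and 4.38 to 5.42 CPM in BIS18. Transcript 16113 lost the call with WT replicate 2 kept (adjusted p = 0.0882), and transcript 8873 under 9 of 20 alternatives, among them the fits without each BIS18 library and without WT replicate 5 or 6. All 10 of the largest rises, BIS and Nat among them, were also called higher in BIS14, where 19.5% of all transcripts were. All 10 of the largest falls were called lower there, where 16.3% were. In GB2 transcript 8873 went the other way, at 0.76. These comparisons share the WT libraries.

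**Figure D4:**
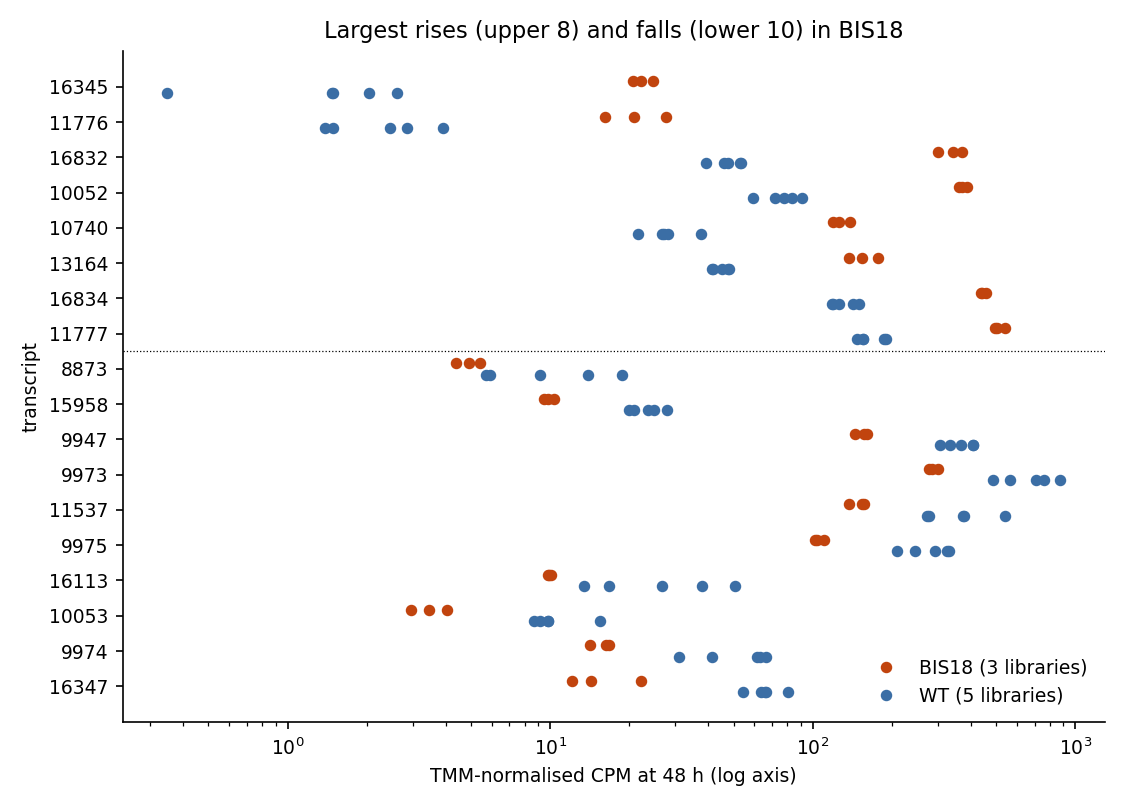
TMM-normalised CPM at 48 h (log axis) in each BIS18 library (upper points of each row) and each WT library (lower points) for the 8 largest rises besides BIS and Nat and the 10 largest falls among transcripts past the threshold without overlap. Transcript 16345 has 20.7 to 24.7 CPM in BIS18, against 0.348 to 2.61 CPM in WT, and transcript 16347 12.1 to 22.1 CPM, against 54.1 to 80.8 CPM.

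The most abundant transcripts among those past the threshold changed far less. Transcript 12821 (scaffold 2) averaged 4926 ± 127 CPM in BIS18 and 3928 ± 266 CPM in WT (SD, n = 3 and 5), a log2 difference of 0.33 (standard error 0.10, adjusted p = 0.0214). Transcripts 9001 and 8910 (scaffold 1) averaged 3946 ± 132 and 3433 ± 257 CPM in BIS18 and 2914 ± 196 and 2375 ± 305 CPM in WT. Among the lower ones, transcripts 12118, 9467 and 10187 averaged 1856 ± 136, 1464 ± 37.9 and 1059 ± 12.7 CPM in BIS18 and 2339.7 ± 241, 1936 ± 220 and 1545 ± 236 CPM in WT. None of these 6 kept its call with WT replicate 2 in the fit, where their adjusted p ran from 0.0665 to 0.851. Transcript 12821 also lost it with library totals (adjusted p = 0.0866) and when any BIS18 library was left out (0.056 to 0.0904). Transcript 12118 lost it without BIS18 replicate 1 or 2 or WT replicate 5 or 6, and transcript 9467 without any of the BIS18 libraries or WT replicate 1.

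A stretch of scaffold 9 stood out by its number of neighbouring transcripts that were all higher. The longest such run held 15 transcripts (902948 to 946237), and the next longest, 10, followed it at 951850 to 973571. Elsewhere the longest run of higher transcripts held 6. From the first transcript of the longer run to the last of the other, 70.6 kb, 28 of 30 entries could be tested. Of these 26 were higher in BIS18, where 11.1% of all transcripts were, with a median log2 difference of 1.00 and a range of 0.28 to 2.81. The bounds were set from these values, so they carry no test.

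Summed over the stretch, the level was 6895, 6945 and 6881 CPM in BIS18, against 2861, 2767, 2919.6, 2915 and 2927 CPM in WT, 2.40 times as high in the means. The libraries of each strain lay within a narrow band. The 27 transcripts tested just before the stretch had a median of 0.02 (2 higher, 5 lower), and the 29 just after it a median of -0.12 (1 higher, 1 lower), where 11.1% of all transcripts were higher and 7.82% lower. Because the bounds were set at called transcripts in these 48 h values, some contrast with the flanks at 48 h was built in. The flanks had 18 h medians of 0.06 before the stretch and -0.07 after it, with 0 called higher on either side. At 18 h, 23 of the 27 transcripts that could be tested were higher in BIS18, where 0.475% of all transcripts were, with a median of 0.98, and the median interaction term over the stretch was 0.08.

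Within the stretch the transcripts did not all move alike. The first, 16806, stood at 0.28 (adjusted p = 0.0326) with overlapping libraries and lost the call without each BIS18 library and without WT replicates 4, 5 and 6 in turn. Transcript 16810, inside the longer run, had 217, 228 and 216 CPM in BIS18, against 105, 110.1, 98.8, 103 and 110.5 CPM in WT, a log2 difference of 1.06 (standard error 0.08). Transcript 16832, in the other run, had 342, 372 and 301 CPM in BIS18, against 47.6, 39.1, 52.7, 46.0 and 53.1 CPM in WT, a log2 difference of 2.81 (standard error 0.31, adjusted p = 1.81e-06). It overlaps the entry before it by 25 bases on the other strand. Near it, transcript 16834 stood at 1.76 (adjusted p = 3.22e-11). Against the same WT libraries the stretch's median was 1.03 in BIS14, 0.18 in BIS3 and 0.02 in GB2. With WT replicate 2 kept 21 transcripts of the stretch were higher, where 2.17% of all transcripts were. With library totals there were 23, where 6.17% of all transcripts were higher.

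**Figure D5:**
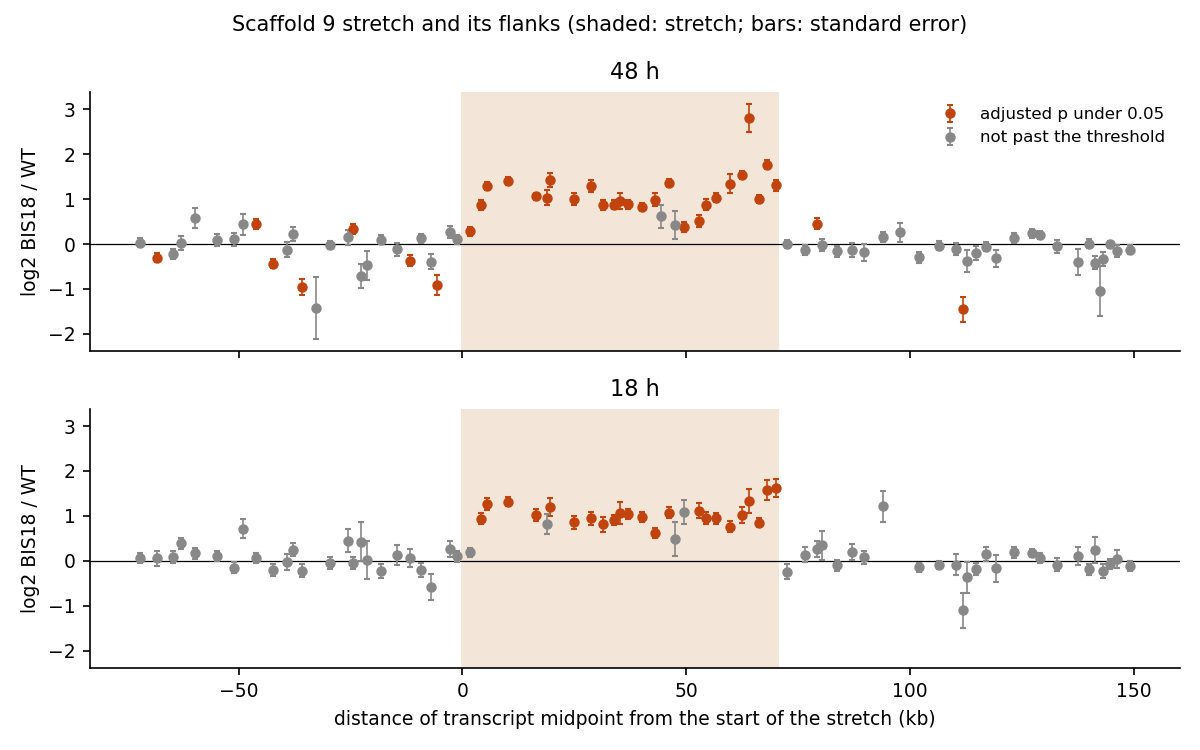
Log2 difference of BIS18 from WT (bars: standard error) at 48 h (top) and 18 h (bottom) for the transcripts of a scaffold 9 stretch (shaded) and the tested ones among 30 entries on either side, against the distance of each midpoint from the start of the stretch in kb. The stretch has medians of 1.00 at 48 h and 0.98 at 18 h, and the flanks 0.02 and -0.12 at 48 h.

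At 18 h fewer transcripts passed the threshold between the same strains. Of 7375 tested, 39 passed (0.529%), of which 35 were higher in BIS18 (0.475%) and 4 lower (0.0542%). In all 23 of these lay in the scaffold 9 stretch. The 18 h libraries had lower mean totals, 1.52e+06 counts in BIS18 and 1.50e+06 in WT, against 2.37e+06 and 2.26e+06 at 48 h. In simulated data the 18 h fit called 34 of 67 changes of 1.5-fold, where the 48 h fit called 52 of 67. The part of this in the lower count at 18 h was not tested. Of the 39, 32 were called in the same direction at 48 h, which is 82.1% of the 18 h calls and 2.14% of the 48 h calls. No library is part of both comparisons, but the same cultures may have been sampled at both times, which the labels do not say. The transcripts called at 48 h had medians near 0 at 18 h. Among those higher at 48 h, 53.3% had a positive value at 18 h, with a median of 0.02, and among those lower 44.3%, with a median of -0.03, where over all transcripts 49.5% were positive.

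Tested directly, the difference of BIS18 from WT moved upward between 18 h and 48 h for 193 of 7899 transcripts (2.44%) and downward for 76 (0.962%), 269 in all (3.41%). This count came to 37 with WT replicate 2 at 48 h kept. Leaving out BIS18 replicate 1, 2 or 3 at 48 h gave 110.0, 139 and 174, and leaving out BIS18 replicate 1 or 3 at 18 h gave 173 and 107. With library totals 96 moved upward and 240 downward. The fit held no term for culture, so any pairing of the times by culture was ignored.

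Among transcripts past the threshold with a mean of at least 10 CPM in one of the 4 groups, the largest upward terms were those of 11807, 14504 and 14973. For transcript 14973 (scaffold 6, 882086 to 883676) the 48 h libraries averaged 219 ± 16.3 CPM in BIS18 and 79.0 ± 4.35 CPM in WT (SD, n = 3 and 5). At 18 h they averaged 209 ± 8.93 CPM in BIS18 and 249.9 ± 25.1 CPM in WT (SD, n = 3 and 6). Its term was 1.73 (standard error 0.23, adjusted p = 1.7e-05). The BIS18 libraries of both times overlapped, and every WT library at 48 h lay below every WT library at 18 h. For transcript 11807 (scaffold 17, 365939 to 367654) the 48 h means were 430.2 ± 36.1 CPM in BIS18 and 189 ± 11.5 CPM in WT, and the 18 h means 105 ± 30.96 CPM in BIS18 and 162 ± 24.8 CPM in WT, with a term of 1.82 (standard error 0.35, adjusted p = 0.00314). Every BIS18 library at 48 h lay above every BIS18 library at 18 h, while the WT libraries of both times overlapped. Transcript 14504 had a term of 1.82 from lower levels, 12.2 ± 0.553 CPM in BIS18 and 5.27 ± 0.730 CPM in WT at 48 h.

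By the same rule the largest downward terms were those of 14002, 9743 and 13024. For transcript 13024 (scaffold 3, 386621 to 388482) the 48 h means were 24.2 ± 0.953 CPM in BIS18 and 42.8 ± 12.3 CPM in WT, and the 18 h means 24.1 ± 0.653 CPM in BIS18 and 11.9 ± 3.13 CPM in WT, with a term of -1.88 (standard error 0.34, adjusted p = 0.00194). The BIS18 libraries of both times overlapped here as well, and every WT library at 48 h lay above every WT library at 18 h. Transcript 14002 overlapped between the strains at 48 h, with 5.09 ± 1.23 CPM in BIS18 and 5.15 ± 2.13 CPM in WT. Its term was -2.34, and at 18 h it averaged 15.96 ± 4.54 CPM in BIS18 and 3.39 ± 1.83 CPM in WT. Transcript 9743 (-2.08) lost its call under 6 of 25 alternatives, among them those without BIS18 replicate 1 at either time, BIS18 replicate 2 at 18 h or WT replicate 6 at 18 h. Transcript 14002 lost it without BIS18 replicate 2 at 18 h (adjusted p = 0.0502), and transcript 14504 without BIS18 replicate 1 or 3 at 18 h (adjusted p = 0.051 and 0.0509).

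The 48 h differences can be set beside the course of time in libraries of neither strain, although these shared the estimate of the spread and the filter on low counts in the 48 h fit. In the mean of BIS14, BIS3 and GB2, 39.3% of 7899 transcripts were higher at 48 h than at 18 h and 36.4% lower. Of the 877 transcripts higher in BIS18 at 48 h that could be tested, 51.4% were lower at 48 h in those strains and 32.8% higher, with a median log2 change of -0.24. Of the 617 lower in BIS18, 49.8% were higher at 48 h in those strains and 23.8% lower, with a median of 0.24. Over all transcripts the median was 0.04.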

How the data were processed

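The deposited values are raw counts of RNA-sequencing reads per transcript (8493 entries, 36 libraries, 0 columns unused). The authors trimmed reads with BBTools, mapped them with HISAT2 to a reference that joined the BIS sequence to the genome of IFO0880, and counted them with featureCounts; versions, strand setting and the annotation release are not given in the sources used here. Listed lengths equal genomic spans, introns included. Coordinates are those of the deposited file.

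Counts were tested with edgeR 4.0.16 (TMM, filterByExpr, quasi-likelihood test, Benjamini-Hochberg adjustment over all transcripts tested, threshold 0.05) in R 4.3.3. The 48 h fit held 17 libraries of 5 strains, which share 1 estimate of the spread, the 18 h fit 18 and the interaction fit 35, always without WT replicate 2 at 48 h. DESeq2 1.42.0 was an alternative. CPM are TMM-normalised within the fit and FPKM use library totals. A count of 0 allows up to 3 counts, and such limits cover counting error only. Tables and figures used Python 3.11.15, pandas 2.3.3 and matplotlib 3.10.9.

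Transcripts named are the cassette entries, 17 genes linked to the study's protein numbers by an offset of 128 (found with 18 h values), the 10 largest rises and falls (mean of at least 10 CPM, no overlap), the 3 most abundant calls per direction, the longest runs of neighbouring calls and the 3 largest interaction terms per direction (past the threshold, mean of at least 10 CPM in 1 of 4 groups). Transcripts 16810, 16832 and 16834 also stand for the stretch. The members and lists were chosen with earlier results of these data known. In simulated data of the 48 h comparison the fit called 52 of 67 changes of 1.5-fold, 67 of 67 of 2-fold and 15 of 7680 unchanged transcripts. For the 18 h comparison these were 34 of 67, 56 of 67 and 8 of 7094. For the interaction they were 26 of 67, 57 of 67 and 8 of 7647. Apart from the set changes, every simulated library had the make-up of WT, and each transcript had 1 spread for all strains. The changes were set in transcripts of at least 10 CPM. The real libraries differed between strains in make-up and spread, so these rates may not hold for them.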

Additional observations from a re-analysis of the deposited data

Results flagged for a closer look

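In 10 of 66 named entries the difference of BIS18 from WT changed between 18 h and 48 h by the interaction test, where 3.41% of all transcripts did. The terms were upward for transcript 11807 (1.82), transcript 14504 (1.82), transcript 14973 (1.73) and transcript 10052 (0.75). They were downward for transcript 14002 (-2.34), transcript 9743 (-2.08), transcript 13024 (-1.88), transcript 15958 (-1.64), transcript 9947 (-1.48) and transcript 11537 (-1.26). That of transcript 10052 (adjusted p = 0.039, edgeR) lost its call under 15 of 25 alternatives, and those of 14504, 15958, 9743 and 14002 under 3, 5, 6 and 1. For 6 of the 10 the term was itself the reason they were named. The others were named for a large difference at 48 h, which is part of the term, so the count is raised by the choice of transcripts.

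Single WT libraries stood apart from the other 4 in 4 of 66 named entries, by a gap test that chance meets in about 1 of 20 groups. The count is near that share. WT replicate 4 had 15.5 CPM of transcript 10053, where the others had 8.71 to 9.82 CPM. WT replicate 1 had 89.4 CPM of transcript 16816, where the others had 71.7 to 75.3 CPM, and 170.4 CPM of transcript 16820, where the others had 136 to 145 CPM. WT replicate 6 held the 1 count of Hyg, 0.297 CPM, where the others had 0, so this entry met the test by that count alone.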

How the results depend on the processing

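The count of 1497 at 48 h was 237 with WT replicate 2 kept and ran from 827 to 1516 with 1 library left out. The interaction count of 269 was 37 with WT replicate 2 kept and 411 by DESeq2. It was 100 against WT replicates 4 to 6 alone, and 683 in a fit of the BIS18 and WT libraries only. With 1 library left out it ran from 107 to 312, at 173 without BIS18 replicate 1 at 18 h and at 110.0, 139 and 174 without BIS18 replicates 1, 2 and 3 at 48 h. The 18 h count of 39 was 131 with WT replicates 1 to 3 only. The 17 genes held 4 calls with WT replicates 4 to 6 only (16.4% of all transcripts), 2 with library totals (ERG9 and ERG11; 26.7% of all transcripts) and 0 to 3 with 1 library left out (10.4 to 19.2% of all transcripts). BIS in BIS18 was 335.5 FPKM with TMM sizes, 813 as CPM without length and 329 to 332 FPKM without 1 library. The cause of these shifts was not tested. Replicate numbers 1 and 3 are shared by both strains. At 48 h the same-numbered pairs had correlations of 0.019 and 0.032 of their deviations, and differently numbered pairs -0.079 to 0.094. The labels do not say whether an equal number marks a shared day or batch, and this was not tested. With the replicate block the counts were 1401 at 48 h, 295 for the interaction and 94 at 18 h, against 1497, 269 and 39 without it. Numbers 4 to 6 occur in WT only, so in the fits of a single time the block takes up those libraries. The blocked comparison then rests on WT replicates 1 and 3 at 48 h and 1 to 3 at 18 h, and is not an adjusted form of the full one.

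Signs turned in 9 transcripts, in 22 of 1598 values, and no turned value passed the threshold. With WT replicate 2 kept ERG13 was 0.080, MK 0.053, PMK -0.24, GGPPS 0.064, ERG11 0.019 and transcript 9001 -0.17. With WT replicates 1 and 3 only ACC1 was -0.031, FAS2 -0.052 and transcript 14002 0.38, and with the replicate block -0.066, -0.11 and 0.50. With WT replicates 4 to 6 only ERG13 was 0.011 and MK 0.11. MK was 0.21 with thinned counts and PMK -0.076 with library totals. With 1 library left out MK ran from -0.098 to 0.036, transcript 14002 from -0.20 to 0.15 and ERG13 from -0.11 to 0.0016. Of the other values, 1481 kept sign and call, 85 lost the call and 10 gained it. Thinning to the smallest library left 1030.0 calls at 48 h, and which changes lost their call was not tested.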
